A study of Rattus norvegicus with 16 samples.

Results

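Haemoglobin and red cell genes were followed in the left ventricle of rats after 5/6 nephrectomy (5/6Nx), an operation that leaves a small remnant of kidney, or sham surgery. The set holds 5 loci: Hba-a2 and LOC287167,LOC360504 (alpha globin), Hbb,LOC100134871,LOC689064 (beta globin), Alas2 and Slc4a1. It is 5 of the 22861 loci listed at weeks 2, 4 and 5, and of the 22862 at week 7. The loci were found by gene symbol, and each symbol stood at 1 locus in every table. The symbols themselves had been chosen on measured values: 4 of the 5 loci are ones that the authors' deposited table marked as significant at week 5 (q at or under 0.05, hereafter called), so the week 5 values are a description. All animals were male Sprague Dawley rats on 0.4% Dyets chow, operated on at 10 weeks of age. Hearts were taken at 2, 4, 5 or 7 weeks, giving at each time a 5/6Nx group and its own sham group. Each of the 8 groups held 2 libraries, each made from pooled RNA of 2 to 3 rats, 16 libraries in all.

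Haemoglobin is built of paired alpha and beta chains, each holding a haem group that binds oxygen. Red cell precursors make globin and haem together, and reticulocytes, the youngest red cells in blood, have lost the nucleus but still carry globin messenger RNA. Alas2 encodes the red cell form of 5-aminolevulinate synthase, the first enzyme of haem synthesis, and Slc4a1 encodes band 3, the anion exchanger of the red cell membrane. The kidney is the main adult source of erythropoietin, the hormone that drives red cell production, and anaemia is a known feature of chronic kidney disease. Ventricle tissue holds blood unless it is flushed. The sources used here do not state whether these hearts were flushed, and no blood count was analysed.

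The globin loci of the tables each stand for more than 1 near-identical gene or have a near-identical neighbour, which limits what their separate values mean. RefSeq (assembly GRCr8) now names LOC287167 as Hba-a3, LOC360504 as Hba-a2, LOC689064 as Hbb-bs and LOC100134871 as Hbbl1. Since LOC360504 is in the other alpha locus, the gene that the tables call Hba-a2 was matched to the RefSeq gene with that synonym, now called Hba-a1. The 250 bases before the annotated start are shown for 4 of these genes, 2 alpha and 2 beta, because the alpha and beta loci are read together below. All are RefSeq sequence of GRCr8, 5′ to 3′ on the minus strand, and each name is followed by its position. Capitals mark matches on either strand to the GATA motif (the word AGATAA, the word AGATAG, the word TGATAA or the word TGATAG), to the word CACCC, to the word CCAAT, or to a TATA-like box (the word TATAAA or the word CATAAA).
Hba-a2 of the tables (RefSeq Hba-a1), chr10:15842581-15842830: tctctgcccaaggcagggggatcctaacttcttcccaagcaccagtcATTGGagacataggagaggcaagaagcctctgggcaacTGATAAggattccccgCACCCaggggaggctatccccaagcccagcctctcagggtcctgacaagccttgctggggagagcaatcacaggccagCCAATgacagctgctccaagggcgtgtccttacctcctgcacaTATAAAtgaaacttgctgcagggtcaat
LOC287167 (RefSeq Hba-a3), chr10:15816944-15817193: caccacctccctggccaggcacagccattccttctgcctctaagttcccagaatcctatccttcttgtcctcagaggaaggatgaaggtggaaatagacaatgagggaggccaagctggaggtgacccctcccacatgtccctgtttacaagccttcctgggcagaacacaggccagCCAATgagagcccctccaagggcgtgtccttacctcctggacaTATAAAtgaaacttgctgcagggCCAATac
Hbb, chr1:167663722-167663971: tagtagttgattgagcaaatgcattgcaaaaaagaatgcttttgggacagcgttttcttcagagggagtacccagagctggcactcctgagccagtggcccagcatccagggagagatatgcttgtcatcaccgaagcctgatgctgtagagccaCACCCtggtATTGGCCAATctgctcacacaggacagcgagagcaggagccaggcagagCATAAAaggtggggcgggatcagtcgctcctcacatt
LOC689064 (RefSeq Hbb-bs), chr1:167631631-167631880: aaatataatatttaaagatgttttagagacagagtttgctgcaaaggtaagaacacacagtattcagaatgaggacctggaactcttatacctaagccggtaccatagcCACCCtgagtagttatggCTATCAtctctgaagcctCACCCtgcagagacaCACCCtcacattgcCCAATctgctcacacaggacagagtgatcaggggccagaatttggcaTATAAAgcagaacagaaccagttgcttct

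Each of the 4 windows had 1 TATA-like box and at least 1 CCAAT, and none of the marked words overlapped. GATA words stood in the windows of Hba-a2 (TGATAA, positions -165 to -160 from the start) and LOC689064 (TGATAG on the other strand, positions -123 to -118). CACCC occurred in 3 of the 4 windows and was not among the letters of the LOC287167 window. Of 33469 RefSeq promoters of that length, 9042 held a GATA word, 49.2% CACCC, 34.0% CCAAT and 22.0% a TATA-like box, so a match is only a description of the sequence. The windows of LOC360504 and of the tables' Hba-a2 were the same at 241 of 250 bases, compared position by position without gaps. The other 4 pairs compared in that way matched at 58 to 63 bases, which without an alignment does not measure how alike they are. The RefSeq window for Alas2 starts 4550 bases inside the gene's annotated span, so it is not shown.

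Read totals ran between 44.5 and 61.8 mega reads, except in pool 2 of the week 7 5/6Nx group, the shallowest at 23.6 mega reads. Between 94.0% and 94.9% of reads were mapped. The share of bases at quality 30 or above was 96.0% to 96.2% in the week 7 libraries and 93.2% to 94.5% in the others. Abundances are given as FPKM (fragments per kilobase and mega fragments), with 1 value per group and no spread between libraries. They are compared within a week, because each week has its own table. Log2 fold changes are 5/6Nx over sham, ± a standard error derived from the authors' two-sided p. Where p is at its floor of 5e-05, as for Hba-a2 at week 7, it is an upper bound only on the error that p implies. The authors' test statistic need not give the same error. At week 7 that statistic was -1.69 for LOC287167, -2.18 for Hbb, -2.96 for Alas2 and 1.24 for Slc4a1. In size each is below the log2 fold change over its derived error, so these derived errors may be too small. The same held for these loci at weeks 2 and 4, as for Slc4a1 (-1.79) and Alas2 (1.23) at week 4. For Hba-a2 this was not so, at 2.06 at week 2, 0.10 at week 4 and -4.08 at week 7. The p-values are those of Cuffdiff on 2 pooled libraries a group, and they do not measure the spread between single rats. At week 7 the authors' test statistic had the other sign than the fold change in 13639 of 13639 loci compared, and in 0 loci at the other weeks. Directions are taken from the column names, so an exchange of those names at week 7 would reverse each direction given for it. The tissue label was met by ventricular myocyte genes, among them Myl2 with 19553 to 45040.0 FPKM in 5/6Nx and 23017 to 45919 FPKM in sham groups.

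The alpha-globin loci were above sham at all 4 weeks, most at weeks 5 and 7. The Hba-a2 locus (XLOC_004105, rn5 chromosome 10, 15497888 to 15498744) had 2869 FPKM in 5/6Nx against 2231 FPKM in sham at week 2, and 2257 against 2233 FPKM at week 4. It had 5896 FPKM in 5/6Nx against 3249.6 FPKM in sham at week 5, and 1002 against 463 FPKM at week 7. The pair of values was nearly equal at week 4 and furthest apart, as a ratio, at week 7. The log2 fold changes were 0.36 ± 0.18 at week 2, 0.02 ± 0.17 at week 4, 0.86 at week 5 and 1.11 ± 0.27 at week 7. By the authors' deposited table, Hba-a2 passed at week 7 (q = 0.00564) and not at weeks 2 (q = 1) and 4 (q = 0.999).

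The other alpha locus, LOC287167,LOC360504 (XLOC_004104, rn5 chromosome 10, 15472342 to 15485302), followed at a lower level. Its values were 1478 FPKM in 5/6Nx against 1229 FPKM in sham at week 2, and 1150.3 against 1058 FPKM at week 4. At week 5 they were 3057 FPKM in 5/6Nx against 1533 FPKM in sham, and at week 7 426 against 273 FPKM. The 5/6Nx value was the higher of the pair each time, closest to sham at week 4 and 1.99 times sham at week 5. Log2 fold changes were 0.27 ± 0.17, 0.12 ± 0.15, 1.00 and 0.64 ± 0.27 at weeks 2, 4, 5 and 7. In the authors' deposited table LOC287167 was not called at week 7 (p = 0.0193, q = 0.314), unlike Hba-a2, and whether these alpha loci differed from each other in response was not tested. Reads shared between these genes were divided by the authors' programs, so the split between them is uncertain.

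The beta-globin locus Hbb,LOC100134871,LOC689064 (XLOC_002127, rn5 chromosome 1, 175098754 to 175136083) was the most abundant of the 5 in 7 of the 8 groups, the exception being sham at week 5, and in all 8 lay among the 46 most abundant tested loci. It had 3777 FPKM in 5/6Nx against 3088 FPKM in sham at week 2, and 3227 against 2661 FPKM at week 4. It had 6881 FPKM in 5/6Nx against 3088 FPKM in sham at week 5, and 2944 against 1657 FPKM at week 7. At weeks 2 and 4 the 5/6Nx value was 1.22 and 1.21 times sham, at week 5 2.23 times and at week 7 1.78 times. Log2 fold changes were 0.29 ± 0.20, 0.28 ± 0.17, 1.16 and 0.83 ± 0.31 at weeks 2, 4, 5 and 7. At week 7 the Hbb locus was not called in the authors' deposited table (p = 0.0074, q = 0.187). Its rank by level among tested loci was 13 in 5/6Nx against 41 in sham at week 5, and 18 against 46 at week 7.

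**Figure D1:**
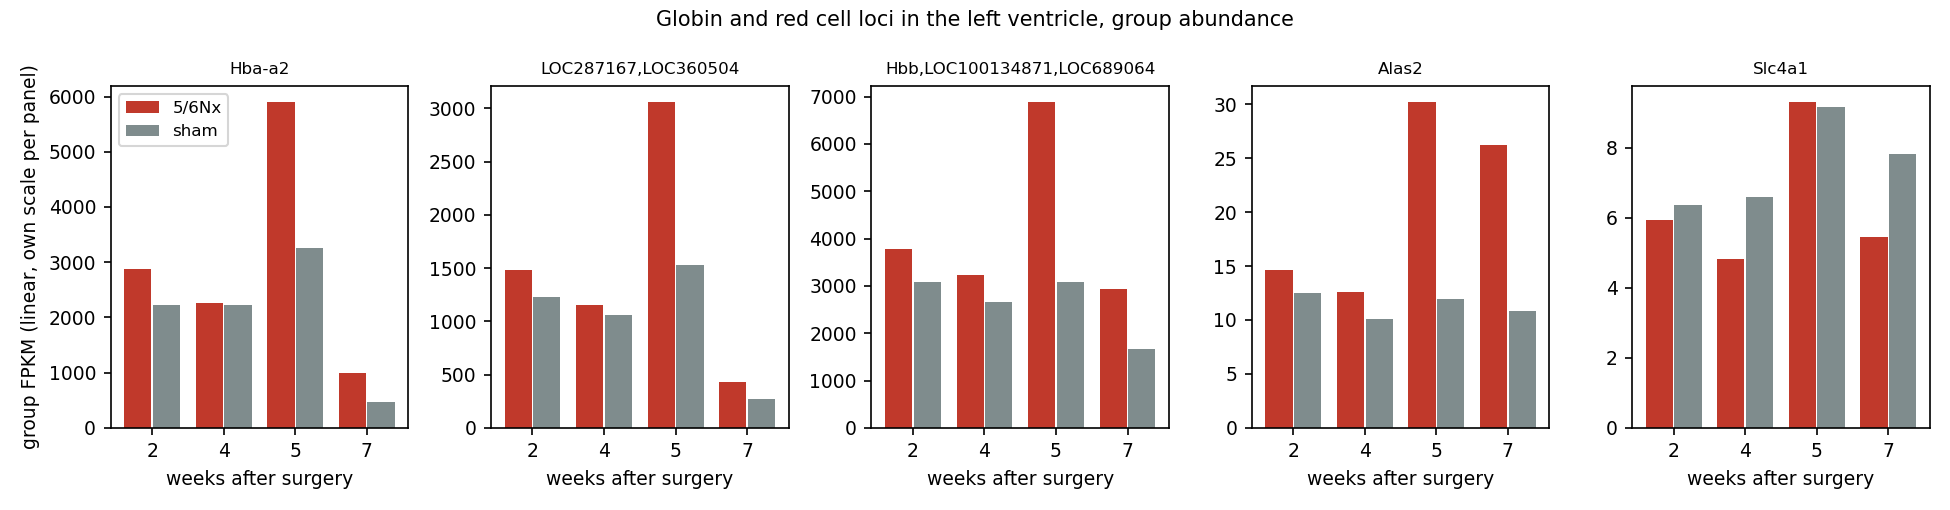
Group abundance (FPKM, linear axes that start at 0 and differ between panels) of the 5 loci by week after surgery, with 5/6Nx in red and sham in grey, 1 value per group of 2 libraries. The alpha, beta and Alas2 bars of 5/6Nx stand above sham at every week, with the largest ratios to sham at weeks 5 and 7, while Slc4a1 is above sham by a small margin at week 5 only (9.30 against 9.16 FPKM).

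Hbb-b1, another adult beta-globin gene, has its own entry over the same coordinates as the Hbb locus (XLOC_002128). It had 478 FPKM in 5/6Nx against 415 FPKM in sham at week 2, 417 against 348 FPKM at week 4, 894 against 447 FPKM at week 5 and 397 against 267 FPKM at week 7. Its log2 fold changes, 0.20 ± 0.54, 0.26 ± 0.48, 1.00 ± 0.71 and 0.57 ± 0.81, lay close to those of Hbb. The derived standard errors were larger, and it was not called at any week. The embryonic globin genes Hbe2, Hbg1 and Hbz were listed at 0 in all 8 groups. Hbe1, a further embryonic gene, was listed at 0.193 FPKM in 5/6Nx at week 2 and 0.118 FPKM in 5/6Nx at week 4, and at 0 in the other 6 groups. Myoglobin (Mb), the oxygen-binding globin of heart muscle itself, had 23873 FPKM in 5/6Nx against 24970.4 FPKM in sham at week 5 (log2 fold change -0.06 ± 0.63) and 7406 against 10406 FPKM at week 7 (-0.49 ± 0.30), and was not called at any week. Cygb, a globin of fibroblasts, was not called either, at -0.12 ± 0.17 at week 5 and 0.39 ± 0.30 at week 7, and Ngb, a globin of neurons, was too low to be tested.

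Alas2 (XLOC_022512, rn5 chromosome X, 23587675 to 23610483) had the highest log2 fold change of the 5 loci at weeks 4, 5 and 7, and would have the lowest at week 7 if the names of that week were exchanged. Its level was 14.7 FPKM in 5/6Nx against 12.5 FPKM in sham at week 2, and 12.6 against 10.1 FPKM at week 4. It was 30.2 FPKM in 5/6Nx against 11.9 FPKM in sham at week 5, and 26.2 against 10.8 FPKM at week 7. The sham values lay between 10.1 and 12.5 FPKM, and only the 5/6Nx values of weeks 5 and 7 stood well above that range, read across separately made tables. Log2 fold changes were 0.23 ± 0.20, 0.33 ± 0.18, 1.34 and 1.28 ± 0.34 at weeks 2, 4, 5 and 7. In the authors' deposited table Alas2 was called at week 7 (q = 0.0140) and not at weeks 2 (q = 1) and 4 (q = 0.998). Alas1, the haem synthesis enzyme of other tissues, had 87.1 FPKM in 5/6Nx against 122 FPKM in sham at week 7 (log2 fold change -0.48 ± 0.27, q = 0.525 in the authors' deposited table). At week 5 Alas1 stood at 252.6 FPKM in 5/6Nx and 252.9 FPKM in sham.

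Slc4a1 (XLOC_004641, rn5 chromosome 10, 90084733 to 90101181) did not follow the others. It had 5.93 FPKM in 5/6Nx against 6.37 FPKM in sham at week 2, and 4.82 against 6.59 FPKM at week 4. It had 9.30 FPKM in 5/6Nx against 9.16 FPKM in sham at week 5, and 5.45 against 7.82 FPKM at week 7. The 5/6Nx value was below sham at 3 of 4 weeks and level with it at week 5. Log2 fold changes were -0.10 ± 0.20, -0.45 ± 0.18, 0.02 and -0.52 ± 0.30 at weeks 2, 4, 5 and 7. In the authors' deposited table Slc4a1 was not called at week 2 (q = 1), week 4 (p = 0.0123, q = 0.548) or week 7 (q = 0.563). At week 7 its 95% interval from the derived error, -1.11 to 0.07, did not meet that of Hba-a2 (0.58 to 1.65) or Alas2 (0.62 to 1.94). The derived errors of Slc4a1 and Alas2 may be too small at that week, and the differences themselves were not tested.

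**Figure D2:**
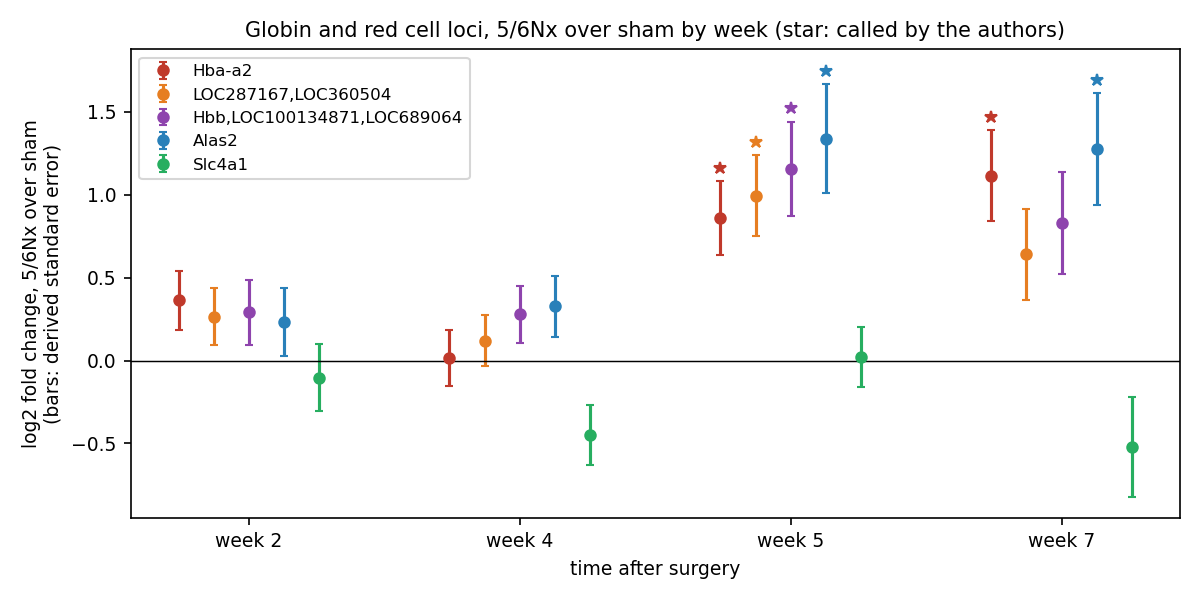
Log2 fold change of 5/6Nx over sham for the 5 loci at each week, with bars for the derived standard error and stars for loci called in the authors' deposited table. Globin loci and Alas2 lie between 0.02 and 0.36 at weeks 2 and 4 and between 0.64 and 1.34 at weeks 5 and 7, and Slc4a1 lies between -0.52 and 0.02.

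At week 2, 0 of the 5 loci were called by Cuffdiff, as were 0% of 14115 tested loci, and 1 of 5 (Hba-a2) had an unadjusted p under 0.05, as did 2.77% of tested loci. At week 4, 0 of 5 were called, against 0.334% of 14085 loci, and 1 of 5 had an unadjusted p under 0.05, against 5.47%. That 1 locus was Slc4a1, which lay below sham. At week 5, 4 of 5 were called higher in 5/6Nx, against 0.396% of 13627 loci. The set was drawn from that result, so nothing is read from this count. At week 7, 2 of 5 (Hba-a2 and Alas2) were called higher, against 1.43% of 13659 loci. With the week 7 names exchanged these 2 would be called lower, as would all loci now called higher, so the share beside them would stay 1.43%. The 0.315% of loci now called lower would then be called higher. At that week 4 of 5 had an unadjusted p under 0.05, all higher, against 10.8% of loci in either direction. The 5 loci were chosen with earlier results of these data known, so the week 7 counts are a description too.

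The median log2 fold change of the 5 loci was 0.27, 0.12, 1.00 and 0.83 at weeks 2, 4, 5 and 7. Over all tested loci the median was -0.02, -0.02, 0.00 and -0.01. The values of week 7 rest on the shallowest library of the series for the 5/6Nx group. In RNA from whole tissue, a change in the number of red cells and a change in RNA per cell cannot be told apart.

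Ratios between loci within a group do not depend on a scaling factor common to all loci of a week. They set week 7 apart in both surgeries. The summed FPKM of both alpha loci over that of the beta locus was 1.15, 1.06, 1.30 and 0.485 in 5/6Nx at weeks 2, 4, 5 and 7, and 1.12, 1.24, 1.55 and 0.444 in sham. With Hbb-b1 added to the beta side, the ratio was 0.935 to 1.15 in 5/6Nx and 0.988 to 1.35 in sham at weeks 2 to 5, and at week 7 it was 0.427 in 5/6Nx and 0.382 in sham. Beta globin over Alas2 was 228 to 257 in 5/6Nx and 247 to 264 in sham at weeks 2 to 5, and at week 7 it was 112 in 5/6Nx and 153 in sham. Both ratios were thus lower at week 7 than at each earlier week in 5/6Nx and in sham alike. Hba-a2 over the other alpha locus was 1.93 to 1.96 in 5/6Nx and 1.82 to 2.12 in sham at weeks 2 to 5, and 2.35 in 5/6Nx and 1.70 in sham at week 7. The week 7 libraries also had a higher share of bases at quality 30 than the others, and its part in these ratios was not tested. Shifts at week 7 that differ between genes were not particular to the globins, read across separately made tables. The endothelial gene Cldn5 had 38.7 FPKM in 5/6Nx and 32.9 FPKM in sham at week 5, but 3.38 and 4.08 FPKM at week 7. Pecam1, also endothelial, had 96.1 and 84.9 FPKM at week 5 and 85.0 and 82.0 FPKM at week 7. Cldn5 is named after its values were seen. Slc4a1 over Alas2 was below its sham value in 5/6Nx at all 4 weeks, 0.404, 0.382, 0.308 and 0.208 in 5/6Nx against 0.51, 0.655, 0.768 and 0.724 in sham.

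**Figure D3:**
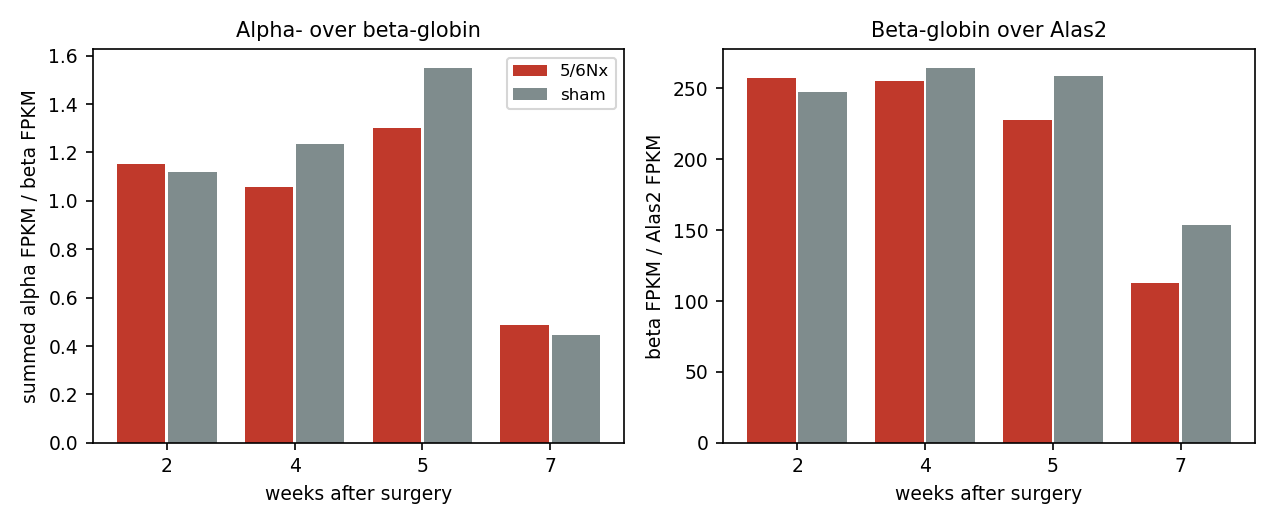
Ratio of the summed alpha-globin FPKM to the beta-globin FPKM (left) and of beta-globin FPKM to Alas2 FPKM (right) in each group by week, with 5/6Nx in red and sham in grey, on linear axes that start at 0. Alpha over beta is above 1 at weeks 2, 4 and 5 (1.06 to 1.30 in 5/6Nx, 1.12 to 1.55 in sham) and under 0.5 at week 7 (0.485 in 5/6Nx, 0.444 in sham).

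Genes linked to red cells were read from 4 lists, on haem synthesis, membrane and blood groups, reticulocytes and late red cells, and transcription factors. Some of these genes are active in other cells too, among them Alas1, Ank1, Sptb, Tfrc and Tal1, so the lists do not measure red cells alone. None of their tested loci was called by Cuffdiff at any week (0 of 47, 47, 46 and 46 at weeks 2, 4, 5 and 7), against 0%, 0.334%, 0.55% and 1.75% of all tested loci called in either direction. An unadjusted p under 0.05 was found for 0, 2, 3 and 3 of them, against 2.77%, 5.47%, 4.44% and 10.8% of all tested loci. With so few loci, these counts do not set the lists apart from the rest. Of 14 tested haem synthesis loci at week 5, 3 lay above sham with a median log2 fold change of -0.04, and of 15 at week 7, 3 with a median of -0.32. Alad and Uros, which act after the first step of haem synthesis, stood at -0.13 ± 0.18 and 0.04 ± 0.43 at week 5. At week 7 Alad stood at -0.60 ± 0.40 and Uros at -0.59 ± 0.74. Neither was called at any week, while Alas2 was called at week 7.

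Among 10 tested loci of the membrane and blood group list, 4 lay above sham at week 5 (median -0.07) and 4 at week 7 (median -0.22). Ank1, which encodes ankyrin-1, linking band 3 to the membrane skeleton, had 296 FPKM in 5/6Nx against 269 FPKM in sham at week 5 and 113 against 139 FPKM at week 7. Such levels are far above those of Slc4a1, and Ank1 and Sptb, a spectrin gene, are also active in striated muscle. Sptb stood at -0.21 ± 0.25 at week 5 and -1.04 ± 0.31 at week 7 (q = 0.0536 in the authors' deposited table). Epb42, which encodes the band 3 partner protein 4.2, was below 1.3 FPKM in all groups, with 0.826 FPKM in 5/6Nx against 0.412 FPKM in sham at week 4 (1.00 ± 0.38, q = 0.450 in the authors' deposited table). Rhd, a blood group antigen gene named after its values were seen, had 1.49 FPKM in 5/6Nx against 0.426 FPKM in sham at week 5 (1.81 ± 0.68, q = 0.475 in the authors' deposited table).

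Of 15 tested reticulocyte and late red cell loci, 9, 6, 11 and 10 lay above sham at weeks 2, 4, 5 and 7, with medians of 0.05, -0.13, 0.11 and 0.39. Ahsp, which encodes the chaperone of free alpha globin, had 6.03 FPKM in 5/6Nx against 1.94 FPKM in sham at week 5 and 4.99 against 1.05 FPKM at week 7. Its log2 fold changes had the largest errors among the red cell genes named here with a test, 1.64 ± 0.96 at week 5 and 2.25 ± 1.57 at week 7. Tfrc, the transferrin receptor that brings iron into red cell precursors and other cells, had 43.9 FPKM in 5/6Nx against 30.5 FPKM in sham at week 5 and 72.5 against 43.4 FPKM at week 7. For Tfrc the log2 fold changes were 0.53 ± 0.18 (q = 0.301) and 0.74 ± 0.30 (q = 0.268), with q from the authors' deposited table. Bpgm, the enzyme that makes the haemoglobin ligand bisphosphoglycerate, stood at 0.25 ± 0.21 and 0.05 ± 0.33. Epor, the erythropoietin receptor, was too low to be tested, at 0.0591 to 0.697 FPKM in 5/6Nx and 0.102 to 0.499 FPKM in sham groups.

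Some transcription factors of red cell precursors were low or listed at 0, and others were not. At week 5 Ldb1 had 25.8 FPKM in 5/6Nx against 29.6 FPKM in sham, and Lmo2 had 22.6 against 19.6 FPKM. Ldb1 and Lmo2 are named after their values were seen. Gata1 was listed at 0 in all 8 groups, and Klf1, which switches on adult beta globin, had 0.134 to 0.360 FPKM in 5/6Nx and 0.181 to 0.548 FPKM in sham groups. Tal1, which endothelial cells also express, had 3.10 to 6.18 FPKM in 5/6Nx and 3.21 to 5.28 FPKM in sham. Nfe2, a factor of red cells and platelets, stood at 0.67 ± 0.44 at week 5 and was not tested at week 7. Tested loci of this list numbered 7, 7, 7 and 6, with medians of 0.01, 0.08, 0.05 and 0.04 at weeks 2, 4, 5 and 7.

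Among genes that clear haem and haemoglobin, 2 were called at week 7 and 0 at weeks 2, 4 and 5, and week 7 was also the week with the most calls over all loci. Hmox1, which encodes the haem-degrading enzyme haem oxygenase 1, had 21.4 FPKM in 5/6Nx against 7.42 FPKM in sham at that week (log2 fold change 1.53 ± 0.38, q = 0.00564 in the authors' deposited table). Cd163, the macrophage receptor for haemoglobin bound to haptoglobin, had 32.6 FPKM in 5/6Nx against 14.2 FPKM in sham (1.20 ± 0.32, q = 0.0169 in the authors' deposited table). At week 5, where globin values were also well above sham, Hmox1 stood at 0.30 ± 0.19 and Cd163 at 0.32 ± 0.20, neither called. Of the 7 tested loci of this list at week 7, 2 were called higher, 0 lower, and the other 5 were not called, against 1.43% of all tested loci called higher. The median was 0.09. Hp and Hpx, the plasma carriers of haemoglobin and haem, were low, with Hp at 0.424 to 1.69 FPKM in 5/6Nx and 0.502 to 1.57 FPKM in sham.

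Markers of other blood cells are given beside the globins. At week 5, all 4 tested of the 12 neutrophil markers lay above sham, and their summed level over the list was 55.4 FPKM in 5/6Nx against 28.0 FPKM in sham. S100a9, a calprotectin subunit of myeloid cells, had 18.4 FPKM in 5/6Nx against 5.62 FPKM in sham (log2 fold change 1.71 ± 0.42, q = 0.0114 in the authors' deposited table), the 1 called gene of the list at that week. Its partner S100a8 had 12.1 FPKM in 5/6Nx against 2.81 FPKM in sham (2.11 ± 0.66, q = 0.162 in the authors' deposited table). The granule gene Ltf was listed at 0 in both groups, Mpo at 0 in 5/6Nx and Ngp at 0 in sham.

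The neutrophil list did not keep that direction at the other weeks. It had 2 of 7 tested loci above sham at week 2 (summed 56.1 FPKM in 5/6Nx against 107 FPKM in sham), 6 of 7 at week 4 (106 against 82.9 FPKM) and 1 of 4 at week 7 (60.1 against 70.7 FPKM). S100a9 had 14.8 FPKM in 5/6Nx against 45.5 FPKM in sham at week 2, and 39.5 against 33.5 FPKM at week 4. At week 7 S100a9 had 23.5 FPKM in 5/6Nx against 39.7 FPKM in sham, while both globin chains and Alas2 stood above sham. Read across separately made tables, the week 5 sham value of S100a9 was the lowest of the 8 groups. Csf3r and Cxcr2, receptors of neutrophils, had at most 1.29 FPKM in any group. The part of neutrophils in the week 5 values was not tested.

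Of 12 platelet markers, 3 of 4 tested loci lay above sham at week 5 (summed 79.7 FPKM in 5/6Nx against 68.3 FPKM in sham) and 2 of 3 at week 7 (104 against 51.4 FPKM). Pf4, a chemokine of platelets that macrophages also express, had 67.1 FPKM in 5/6Nx against 25.8 FPKM in sham at week 7 (1.38 ± 0.40, q = 0.0336 in the authors' deposited table). Read across separately made tables, its sham value at week 7 was the lowest of the 8 groups, the rest lying at 54.1 to 79.5 FPKM. The platelet genes Ppbp and Gp9 were listed at 0 in 5/6Nx at that week, and Gp1bb, a platelet receptor subunit, had 1.22 FPKM in 5/6Nx against 1.41 FPKM in sham. Lymphocyte markers had medians of 0.10 at week 5 (5 of 7 tested loci above sham, summed 36.3 FPKM in 5/6Nx against 35.1 FPKM in sham) and -0.37 at week 7 (2 of 6, summed 29.1 against 24.3 FPKM), with no call. The T cell gene Cd3e had 0.864 FPKM in 5/6Nx against 0.853 FPKM in sham at week 5, and the B cell gene Ms4a1 was at most 0.415 FPKM in any group. What part other blood cells have in the globin values was not tested.

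Markers of heart cells are given last. The 11 endothelial loci had medians of 0.18 at week 5 (8 above sham, summed 675 FPKM in 5/6Nx against 628 FPKM in sham) and 0.05 at week 7 (7 above sham, 497 against 477 FPKM), with no call. Pecam1, the vessel lining marker, stood at 0.18 ± 0.18 and 0.05 ± 0.27. Of 10 ventricular myocyte loci, 2 lay above sham at week 5 (median -0.05) and 0 at week 7 (median -0.41). Their summed level at week 7 was 45650.2 FPKM in 5/6Nx against 58275 FPKM in sham, and none was called. At week 7, 2 of the 10 had an unadjusted p under 0.05, both below sham, against 10.8% of all tested loci. These were Tnni3, cardiac troponin I, at -0.67 ± 0.32 (q = 0.412 in the authors' deposited table) and the myosin light chain Myl3 at -0.72 ± 0.30 (q = 0.279 in the same authors' deposited table), the second named after its values were seen. The locus shared by the myosin heavy chains Myh6 and Myh7 stood at -1.04 ± 0.53 (q = 0.463 in the authors' deposited table). Whether this lower myocyte level moved the globin values at week 7 was not tested.

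**Figure D4:**
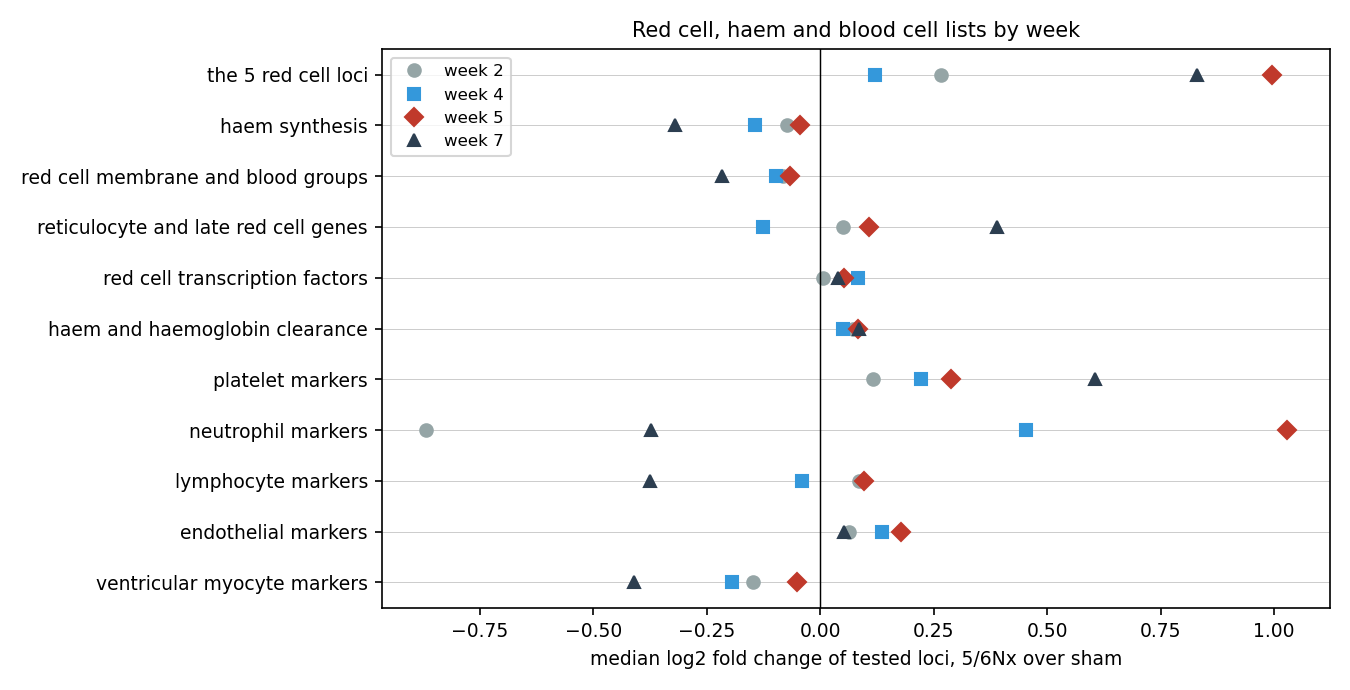
Median log2 fold change (5/6Nx over sham) of the tested loci in each list at weeks 2, 4, 5 and 7, with the 5 red cell loci in the top row. The top row reaches 1.00 at week 5, where its place was set by how the loci were chosen, and 0.83 at week 7. The haem synthesis, membrane, transcription factor and endothelial lists stay between -0.32 and 0.18. The neutrophil list runs from -0.87 at week 2 to 1.03 at week 5. At week 7 the platelet list stands at 0.61, reticulocyte genes at 0.39, haem clearance at 0.09, lymphocytes at -0.37 and myocytes at -0.41.

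Genes elsewhere in the genome with weekly fold changes most like those of the Hbb locus were ranked by the root mean square difference of their 4 log2 fold changes. Among 9540 named loci tested in all 4 weeks, with at least 1 FPKM in a group each week, the 5 nearest outside the set were Meox1 (0.10), Hmmr (0.11), Tubb6 (0.12), Csrp2 (0.14) and Cdca8 (0.15). Hmmr and Cdca8 are genes of dividing cells, Tubb6 encodes a tubulin, Csrp2 a LIM protein and Meox1 a homeobox factor. By the authors' deposited table, Tubb6 and Csrp2 passed at week 5, and none of the 5 was called at weeks 2, 4 or 7. The other alpha locus came 5th on the same scale (0.15), Hbb-b1 7th (0.16), Alas2 12th and Hba-a2 13th (both 0.25), and Slc4a1 8487th (0.97). This measure rests on 4 values per locus from the same libraries and is a description.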

How the data were processed

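RNA of the left ventricle was sequenced from 16 libraries in 8 groups. Per the submitters' processing notes, the tools were Cufflinks 2.0.10 and Cuffdiff, TopHat2 2.0.10 and cutadapt, on rat build rn5, with no role given for each. The deposited tables, 1 per week, hold 1 abundance per locus and group, read here as FPKM from their Cuffdiff layout, since the file headers say only abundance. They also hold the authors' test statistic (a score), two-sided p-value and q-value, adjusted over the loci tested that week. The authors' deposited library table holds read counts, percent of reads mapped and percent of bases at quality 30. Counting error per locus is unknown, since no count per gene was analysed.

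Fold changes were computed as 5/6Nx over sham FPKM with no pseudocount, and standard errors as the log2 fold change over the normal quantile of the authors' p. A locus is called where the authors' q is at or under 0.05. The tests planned for separate libraries could not be fitted to group values, so the authors' Cuffdiff results stand in their place. Week 7 rows repeated for 1 locus were joined, leaving 22862 of 23181. The 5 loci and the lists were chosen with earlier results of these data known. The 12 lists held 154 genes, of which 130 matched a locus, 2 of them through a RefSeq synonym.

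Genes named are the 5 loci, called loci of each list, the first 4 genes found of each list, markers at 0, and the 5 loci most like Hbb. Some genes under this rule are not reported here. The scripts were tested on simulated data. Python 3.11.15, NumPy 2.4.6, pandas 2.3.3, SciPy 1.17.1 and matplotlib 3.10.9 were used. Alternatives were other pseudocounts, other q thresholds, a filter at 1 FPKM and other choices of locus.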

Additional observations from a re-analysis of the deposited data

How the results depend on the processing

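Of 84 values recomputed under settings that could change them, 82 kept their direction and their side of the threshold or stayed within the limits set for counts. With q at or under 0.01 in place of 0.05, 0 of the 5 loci were called at week 5, against 4, and 1 at week 7, against 2. Pseudocounts of 0.1 or 1 moved a log2 fold change of the 5 loci by at most 0.07, and 0 of them changed sign. Each symbol stood at 1 locus, so another 28 values under other choices of locus could not change and show nothing about stability. No paired analysis was possible because the tables hold 1 value per group and no value per library. Leaving out a library was not run for the same reason, so the weight of the shallow 5/6Nx library at week 7 is unknown. The number of pooled libraries limits the precision, and values under 1 FPKM rest on few reads.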
